A study of Homo sapiens with 28 samples.

Results

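The genes described are 49 genes of the G1/S transition and of DNA replication, measured in human multiple myeloma cell lines exposed to arsenicals. Members were the listed gene symbols, each read from probe sets whose only symbol in the platform annotation is that gene, which gave 49 of 19775 genes and 92 of 54675 probe sets. The series has 28 Affymetrix expression arrays of total RNA from 4 lines, U266, MM.1s, KMS11 and 8226/S. Each line was treated with 2 µM arsenic trioxide (ATO) for 6, 24 and 48 h, or with the organic arsenical darinaparsin (DAR) for 6 and 24 h at a dose set by line (U266 4 µM, both MM.1s and KMS11 3 µM, 8226/S 2 µM), and each has untreated (0 h) arrays numbered control 1 and control 2. All groups grew in the same serum-containing medium, and each treatment has 1 array in each line, so n = 4 lines throughout. Nothing in the labels says that arrays of a line came from separate cultures, and the p-values below measure the spread between these arrays. Changes are given as treated minus control on a log2 scale, ATO arrays against control 2 and DAR arrays against control 1 of the same line. There is no untreated array at 6, 24 or 48 h, so exposure and time in culture cannot be told apart in any of these changes.

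A cell licenses its replication origins when the origin recognition complex, CDC6 and CDT1 load rings of the MCM2 to MCM7 helicase onto DNA. Cyclin E kinase and the E2F factors carry the cell into S phase, where CDC45 and the GINS complex join the rings to form the active helicase. Polymerases, the PCNA sliding clamp and its RFC loader then copy the strands, and many of these genes are known E2F targets whose transcripts are abundant in dividing cells.

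Array medians fell into 2 sets. The 16 ATO and control 2 arrays had median signals of 110.9 to 147.3, and the 12 DAR and control 1 arrays had 65.5 to 108.7, while the trimmed mean was 499.9 on every array. Each of the 20 treated arrays correlated more strongly with the control of its own number than with the other control of its line. The labelled cell type was checked with 8 plasma cell markers. Of these SDC1, TNFRSF17, IRF4, XBP1, PRDM1 and POU2AF1 exceeded the array median on 28 of 28 arrays, MZB1 on 26 and SLAMF7 on 23. Markers of other cell types did so on 7 to 10 arrays for B cells (MS4A1 and PAX5), 2 to 20 for T cells (CD3D, CD3E and CD2) and 0 to 11 for monocytes and granulocytes (CD14, LYZ, CSF1R and MPO). Fibroblast collagens exceeded it on 6 to 22 arrays (COL3A1, COL1A2 and COL1A1), the epithelial genes KRT19 on 1 and EPCAM on 14, the endothelial genes VWF on 4 and PECAM1 on 28, and HBB of red cells on 26. What these signals add to the replication genes' values was not tested. In bulk RNA, fewer cells in S phase and less of a transcript in each cell cannot be told apart.

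Promoter windows in the RefSeq table (GRCh38.p14, 250 bases before to 50 after a gene's start) were found for 42 of the 49 genes, as 54 windows. They were searched on both strands for the E2F-type letters TTCCCGC, then TTGGCGC, further TTCGCGC and lastly TTGCCGC, whose matches can overlap each other, and for CCAAT. E2F-type letters were present in 64.8% of the members' windows, against 13% of all 34796 windows in the table and 17.2% of the windows of genes tested here. CCAAT was present in 57.4% of the members' windows, against 34.6% of all windows. Windows of 4 genes are printed because their transcripts behaved differently under ATO: MCM7 was lower at every time, CDC45 had the largest mean decrease at 48 h, ORC1 was higher at 6 h, and RPA1 was at 0.06 at 48 h. Capitals mark the E2F-type letters, which read as the reverse complement where they lie on the other strand. The MCM7 window shown (chr7:100101348-100101647, minus strand), which has the most matches of 3 in the table, has 3 matches, of which the pair next to the start overlaps, and the other MCM7 windows have 2 and 0. ORC1 (chr1:52404374-52404673, minus strand) has 2 overlapping matches, and RPA1 (chr17:1829755-1830054, plus strand) has 1. In the CDC45 window (chr22:19479216-19479515, plus strand, the first of 3 in the table) these letters do not occur.
MCM7: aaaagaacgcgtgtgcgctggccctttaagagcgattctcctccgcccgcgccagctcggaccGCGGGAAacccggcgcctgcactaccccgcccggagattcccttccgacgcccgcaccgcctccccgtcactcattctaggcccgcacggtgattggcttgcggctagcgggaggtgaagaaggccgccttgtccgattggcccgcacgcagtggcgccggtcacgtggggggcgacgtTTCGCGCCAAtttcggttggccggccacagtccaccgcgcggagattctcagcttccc
CDC45: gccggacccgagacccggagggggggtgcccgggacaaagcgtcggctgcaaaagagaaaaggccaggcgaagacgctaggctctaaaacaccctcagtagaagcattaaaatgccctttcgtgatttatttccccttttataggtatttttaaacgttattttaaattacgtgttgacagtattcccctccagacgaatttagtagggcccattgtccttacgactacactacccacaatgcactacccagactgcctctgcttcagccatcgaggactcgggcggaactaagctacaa
ORC1: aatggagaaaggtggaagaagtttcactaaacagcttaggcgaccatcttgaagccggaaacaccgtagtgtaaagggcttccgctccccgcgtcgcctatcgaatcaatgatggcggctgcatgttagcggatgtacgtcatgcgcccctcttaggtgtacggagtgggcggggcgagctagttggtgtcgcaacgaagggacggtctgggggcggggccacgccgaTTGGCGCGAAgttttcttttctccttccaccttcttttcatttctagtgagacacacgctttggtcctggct
RPA1: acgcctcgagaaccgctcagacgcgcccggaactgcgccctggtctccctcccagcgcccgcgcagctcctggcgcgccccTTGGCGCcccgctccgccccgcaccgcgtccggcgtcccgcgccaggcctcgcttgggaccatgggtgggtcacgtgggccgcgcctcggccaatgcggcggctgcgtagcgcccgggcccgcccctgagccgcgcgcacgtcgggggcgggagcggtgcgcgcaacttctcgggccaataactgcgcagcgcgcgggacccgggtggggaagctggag

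After 48 h of ATO most of the replication genes were lower. Of the 49 members 32 fell (65.3%), against 5.49% of the 15448 genes tested that were called lower, and 0 rose, against 6.4% called higher (adjusted p under 0.05, limma, Benjamini-Hochberg over all genes tested). The median change over the members was -0.68, against 0.06 over all genes tested. The largest mean decreases were those of CDC45 (2.97-fold lower), GINS2 and MCM10 (2.85-fold lower each), CDC6 (2.80-fold lower) and MCM7 (2.68-fold lower). Members below their control in all 4 lines numbered 27, or 55.1%, against 11.1% of all genes tested. The fit takes its error from all treatments together, while the line medians spread most at 48 h of ATO (SD 0.54). With the error taken from the 4 line changes at 48 h alone, an alternative added after seeing the data, 1 member stayed below the threshold, MCM7 (adjusted p = 0.0187), and the other 31 lay between 0.0535 and 0.231.

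**Figure D1:**
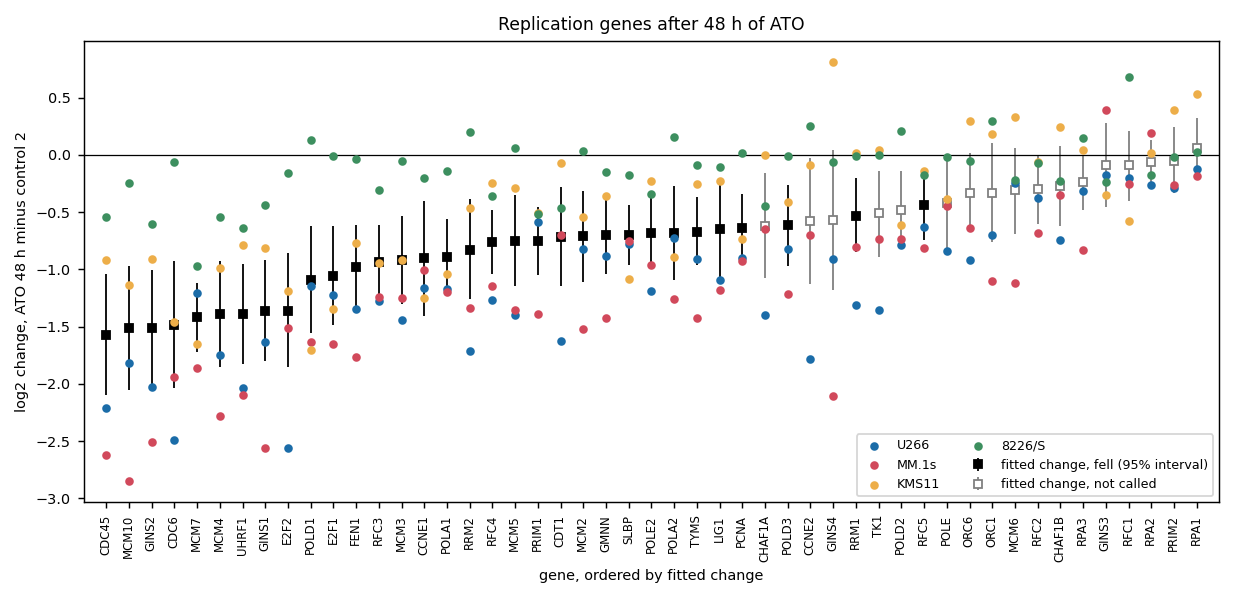
Log2 change of each of the 49 genes after 48 h of ATO against control 2 (vertical axis), ordered by the fitted change. Coloured points are the 4 lines, filled squares are genes that fell and open squares genes not called, with 95% intervals of the fit. Points of U266 and MM.1s lie lowest for most genes, and those of 8226/S lie near 0 for most but not for MCM7 (-0.97).

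Among the helicase subunits, MCM7 is described first because it was called at every ATO time. At 48 h of ATO its signal was 1467 in U266, 910.1 in MM.1s, 1547 in KMS11 and 6860 in 8226/S, against control 2 signals of 3418, 3390, 4921 and 13450. The groups overlap only through 8226/S, whose level was high throughout, and within each line the treated array was the lower. MCM7 fell by 1.42 ± 0.15 (SE) on the log2 scale (adjusted p = 1.76e-06), with 4 line changes from -1.86 to -0.97 (SD 0.41). MCM4 fell by 1.39 ± 0.22, MCM3 by 0.92 ± 0.19, MCM5 by 0.75 ± 0.19 and MCM2 by 0.71 ± 0.19. MCM6, another subunit of the same ring, was at -0.31 ± 0.18 and did not pass (adjusted p = 0.308). MCM10, which acts in helicase activation and origin firing, fell by 1.51 ± 0.26, with line changes of -1.82 in U266, -2.85 in MM.1s, -1.13 in KMS11 and -0.25 in 8226/S.

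CDC45 and the GINS proteins convert the loaded ring into a running helicase. CDC45 signals at 48 h of ATO were 158.9 in U266, 90.24 in MM.1s, 631.7 in KMS11 and 325.7 in 8226/S, against 838.8, 702.8, 1216 and 487.3 in control 2. Treated arrays were the lower in every line, but the groups overlap, since treated KMS11 stood above untreated 8226/S. CDC45 fell by 1.57 ± 0.26 (adjusted p = 0.000355). GINS2 signals were 474.9, 184.4, 1225 and 1512 at 48 h of ATO in U266, MM.1s, KMS11 and 8226/S, against 2021, 1184, 2325 and 2313 in control 2. GINS2 fell by 1.51 ± 0.24 and GINS1 by 1.36 ± 0.21. The other GINS subunits did not follow: GINS3 was at -0.09 ± 0.18 and GINS4 at -0.57 ± 0.29, with GINS4 line changes from -2.11 in MM.1s to 0.81 in KMS11.

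Of the 5 licensing genes 3 fell at 48 h. CDC6, the ATPase that helps load the helicase, had signals of 271.1, 348.5, 1168 and 3802 at 48 h of ATO in U266, MM.1s, KMS11 and 8226/S, against 1656, 1417, 3271 and 3971 in control 2. The 8226/S array was almost level with its control, with a change of -0.06, while the other lines were between -2.49 and -1.46. CDC6 fell by 1.49 ± 0.27 (adjusted p = 0.000801), its partner CDT1 by 0.72 ± 0.21, and GMNN, the geminin inhibitor of CDT1, by 0.70 ± 0.16. The origin recognition subunits ORC1 and ORC6 were both at -0.33 (SE 0.21 and 0.17) and did not pass.

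The sliding clamp and its loader gave 4 of 6 genes that fell. PCNA, the clamp itself, fell by 0.64 ± 0.14 (adjusted p = 0.00509), and 8226/S was level with its control at 0.01. Of the loader subunits RFC3 fell by 0.94 ± 0.16, RFC4 by 0.76 ± 0.14 and RFC5 by 0.44 ± 0.14 (limma adjusted p = 0.0486 for RFC5). RFC1, the large subunit, was at -0.09 ± 0.15 and RFC2 at -0.30 ± 0.14, and neither passed.

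Of 9 polymerase and primase genes 6 fell. POLD1, the catalytic subunit of polymerase delta, fell by 1.09 ± 0.23, and 8226/S at 0.13 stood apart from -1.15, -1.63 and -1.71 in U266, MM.1s and KMS11. POLA1, the catalytic subunit of polymerase alpha, fell by 0.89 ± 0.16, PRIM1, the small primase subunit, by 0.75 ± 0.14, POLA2 by 0.68 ± 0.20, POLE2 by 0.68 ± 0.15 and POLD3 by 0.61 ± 0.17. POLE, the catalytic subunit of polymerase epsilon, was at -0.42 ± 0.20 and POLD2 at -0.48 ± 0.16, with adjusted p of 0.207 and 0.0573. PRIM2, the large primase subunit, was at -0.05 ± 0.14. FEN1 and LIG1, which trim and join lagging strand fragments, fell by 0.98 ± 0.18 and 0.65 ± 0.21. The LIG1 call was near the threshold (limma adjusted p = 0.0495) and was lost without U266, without MM.1s and without KMS11.

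Of 4 nucleotide synthesis genes 3 fell. RRM2, the regulated subunit of ribonucleotide reductase, fell by 0.83 ± 0.21, thymidylate synthase (TYMS) by 0.67 ± 0.14 and RRM1 by 0.53 ± 0.16. TYMS signals at 48 h of ATO were 10660 in U266, 5389 in MM.1s, 15340 in KMS11 and 15520 in 8226/S, against 20050, 14500, 18260 and 16550 in control 2, so the groups overlap and the differences in KMS11 and 8226/S were small. Thymidine kinase (TK1) was at -0.51 ± 0.18 (adjusted p = 0.0704), with -1.36 in U266, -0.74 in MM.1s and values of 0.0449 in KMS11 and -0.0016 in 8226/S.

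Of the G1/S regulators E2F2 and E2F1, the transcription activators of S phase, fell by 1.36 ± 0.24 and 1.06 ± 0.21, and cyclin E1 (CCNE1) by 0.90 ± 0.25. E2F2 signals at 48 h of ATO were 914.2, 861.6, 1299 and 1840 in U266, MM.1s, KMS11 and 8226/S, against 5540, 2509, 2998 and 2058 in control 2, and the groups did not overlap. Cyclin E2 (CCNE2) was at -0.58 ± 0.27 and did not pass, with -1.79 in U266 and 0.25 in 8226/S. In the chromatin group UHRF1, which recruits the maintenance DNA methyltransferase to new DNA, fell by 1.39 ± 0.21, and SLBP, which binds the stem-loop of replication-dependent histone messages, by 0.70 ± 0.13. SLBP signals at 48 h of ATO were 4042, 3802, 3403 and 4993 in U266, MM.1s, KMS11 and 8226/S, against 6955, 6427, 7256 and 5638 in control 2, again without overlap. CHAF1A and CHAF1B of chromatin assembly factor 1 were at -0.62 ± 0.22 and -0.27 ± 0.17 and did not pass.

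The 3 genes of replication protein A, which coats single-stranded DNA in replication and in repair, gave 0 calls. RPA1 was at 0.06 ± 0.12, the only member above 0 at 48 h, RPA2 at -0.06 ± 0.09 and RPA3 at -0.24 ± 0.12. RPA2 signals were 5265, 3429, 3728 and 3469 at 48 h of ATO in U266, MM.1s, KMS11 and 8226/S, against 6344, 2995, 3689 and 3919 in control 2, with overlapping groups and no common direction. The 95% interval of the RPA2 change ran from -0.25 to 0.13 and that of RPA1 from -0.20 to 0.32.

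E2F-type letters had similar shares among genes that fell and genes not called. Of the members with a window, 23 of 29 that fell at 48 h held E2F-type letters (79.3%), against 10 of 13 not called (76.9%). Among the windows printed above, that of CDC45 holds none of these letters and that of RPA1 holds 1.

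**Figure D2:**
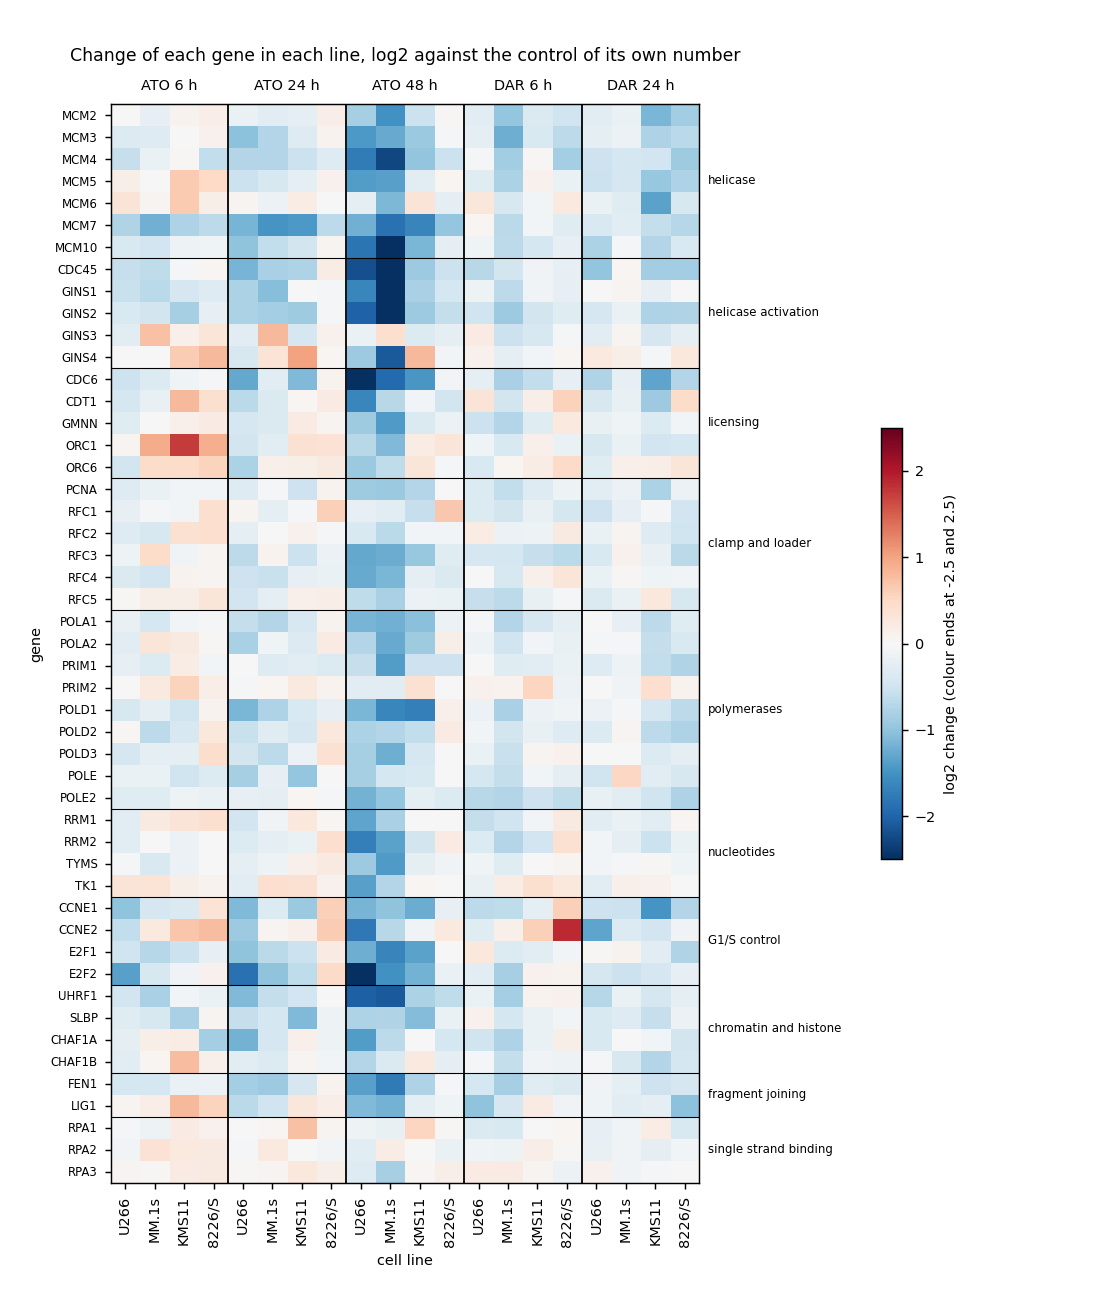
Log2 change of the 49 genes (rows, grouped by role) in each line and treatment (columns) against the control of the same number, on a colour scale ending at -2.5 and 2.5. Blue is lower than control and red higher, and the deepest blue columns are U266 and MM.1s at 48 h of ATO.

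The members' median at 48 h of ATO was -1.15 in U266, -1.18 in MM.1s, -0.41 in KMS11 and -0.09 in 8226/S, while the median over all genes tested lay between -0.01 and 0.11. At least a 2-fold decrease (1 log2 unit) was seen for 26 members in U266, 29 in MM.1s, 9 in KMS11 and 0 in 8226/S. The shares of all genes tested with such a decrease were 4.98%, 6.53%, 5.74% and 3.72% in the same order. Each member's lowest value came from U266 for 19 genes, MM.1s for 25, KMS11 for 5 and 8226/S for 0, a count not made over all genes tested. Line differences of the change at 48 h were tested gene by gene with an F test added after seeing the data, which called 5 members against 0.55% of all genes tested. Each line has 1 array at that time, so the error of this test came from the other times and treatments, and the lone arrays were assumed to vary as those do. These were TYMS (adjusted p = 0.024), MCM10 (0.0294), GINS4 (0.0371), TK1 (0.0443) and GINS2 (0.0485), and 24 members were under an unadjusted p of 0.05. Averaged over the ATO times, limma called 0 members for a line difference, against 0.142% of all genes tested, and 5 members were under an unadjusted p of 0.05. Counts of all genes under an unadjusted p of 0.05 are not given here for these line tests.

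**Figure D3:**
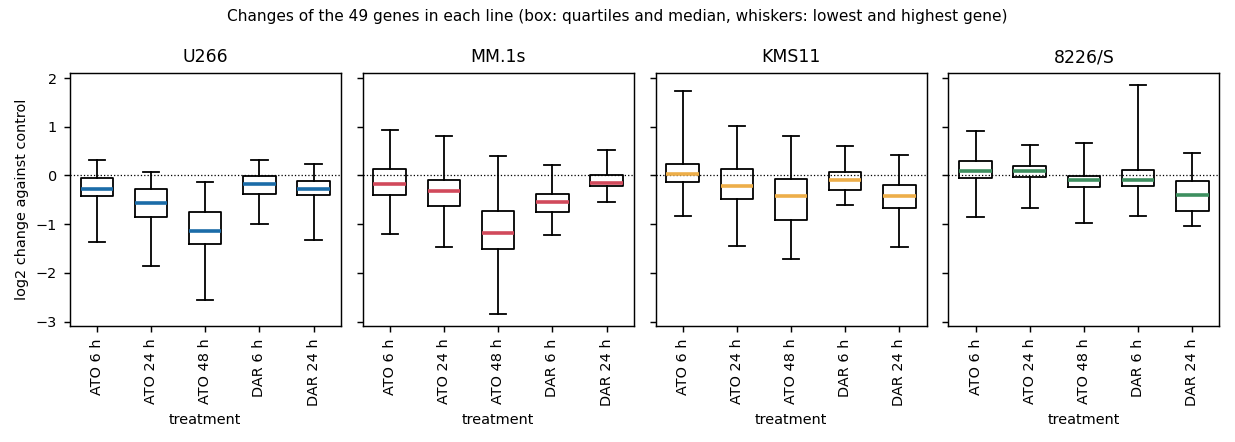
Distribution of the 49 log2 changes in each line (panels) and treatment (horizontal axis), with boxes for quartiles and median and whiskers to the lowest and highest gene. At 48 h of ATO the U266 and MM.1s medians are -1.15 and -1.18, and that of 8226/S is -0.09.

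At the earlier ATO times few of the genes were called. At 6 h 1 member fell, against 2.67% of all genes tested called lower, and 1 rose, against 3.75% called higher, with a members' median of -0.11. At 24 h 2 fell, against 2.29%, and 0 rose, against 2.74%, with a median of -0.23. At that time 16 members were under an unadjusted p of 0.05 (limma), against 2798 of the 15448 genes tested. The mean of the 4 line medians was -0.08 ± 0.18 at 6 h, -0.25 ± 0.26 at 24 h and -0.71 ± 0.54 at 48 h (SD, n = 4 lines). A mean change that was lower at each later time was seen for 41 members, a count not made over all genes tested. Between neighbouring times, 1 member was lower at 24 h than at 6 h, against 0.311% of all genes tested. Between 48 h and 24 h limma called 0 members and 0% of all genes tested, with 32 members and 990 genes under an unadjusted p of 0.05.

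MCM7 had already fallen at 6 h, alone among the helicase genes, by 0.85 ± 0.15 (adjusted p = 0.000719). Its signals at 6 h of ATO were 2022, 1465, 2861 and 8481 in U266, MM.1s, KMS11 and 8226/S, and at 24 h 1510, 1199, 1799 and 8486, against the control 2 signals given above. Every line was lower at 6 h, and at 24 h the fall was 1.19 ± 0.15 (adjusted p = 2.41e-05). SLBP fell by 0.56 ± 0.13 at 24 h (adjusted p = 0.0103), with signals of 4667, 4710, 3379 and 5156 that did not overlap the control 2 signals. That call was lost without U266 (adjusted p = 0.076), without MM.1s (0.0564) and without KMS11 (0.193). Without 8226/S the count of members that fell at 24 h was 10 instead of 2. The share of all genes tested called in that setting is not given here, so the count cannot be read as particular to these genes.

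ORC1, the ATPase subunit of the origin recognition complex, went the other way at 6 h. Its signals at 6 h of ATO were 683.2 in U266, 841.4 in MM.1s, 1642 in KMS11 and 1938 in 8226/S, against 649.4, 429, 469.7 and 1015 in control 2. U266 hardly differed from its control, KMS11 differed most, and the groups overlap. ORC1 rose by 0.91 ± 0.21 (adjusted p = 0.00918), and the adjusted p was 0.213 without KMS11. At 24 h its signals were 463.8, 345.3, 616.3 and 1315, lower than at 6 h by 0.92 ± 0.21 (adjusted p = 0.048). That call was lost with any 1 line left out (adjusted p from 0.0728 to 0.426) and with all 8 controls pooled (0.594). Control 1 of the same lines read 877.1, 931.1, 1532 and 2355, higher than control 2 in each line, and with all 8 controls pooled ORC1 at 6 h was at 0.37 (adjusted p = 0.353).

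**Figure D4:**
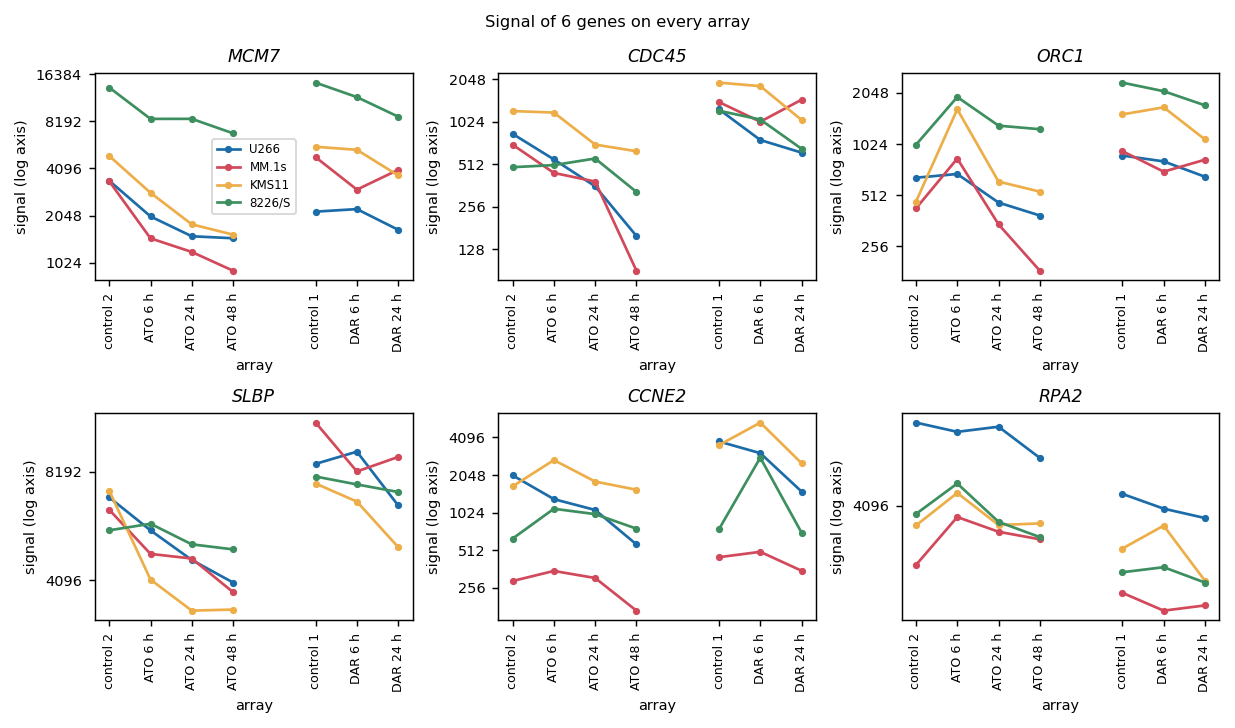
Signal of 6 genes (log axis) on every array, with a line for each cell line, over the ATO series with control 2 and the DAR series with control 1. MCM7 is below control 2 at every ATO time in all 4 lines, and in 8226/S it is level between 6 h and 24 h. ORC1 is highest at 6 h of ATO within the ATO series of each line. CCNE2 peaks at 6 h of DAR in 8226/S, and RPA2 shows no common direction at 48 h.

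Under DAR few members passed the test. At 6 h 3 members fell, against 6.37% of all genes tested called lower, and 0 rose, against 6.86% called higher, with a members' median of -0.23. Polymerase epsilon's POLE2 had signals of 777.7, 448.6, 863.5 and 1444 at 6 h of DAR in U266, MM.1s, KMS11 and 8226/S, against 1277, 761, 1256 and 2261 in control 1. All 4 lines were lower by similar amounts, with changes from -0.73 to -0.53. POLE2 fell by 0.65 ± 0.15 (adjusted p = 0.00478), MCM3 by 0.63 ± 0.19 (adjusted p = 0.0259) and RFC3 by 0.53 ± 0.16 (adjusted p = 0.029). MCM3 lost its call without MM.1s, KMS11 or 8226/S (adjusted p from 0.0553 to 0.192), and RFC3 without U266, KMS11 or 8226/S (0.0748 to 0.146). With all 8 controls pooled POLE2 was at -0.37 (adjusted p = 0.171) and RFC3 at -0.24 (adjusted p = 0.419), and neither passed.

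At 24 h of DAR limma called 0 members lower, against 0.129% of all genes tested, and 0 higher, against 0.492%. Under an unadjusted p of 0.05 lay 18 members, against 2270 of the 15448 genes tested. The members' median was -0.31, with line medians of -0.28 in U266, -0.15 in MM.1s, -0.42 in KMS11 and -0.39 in 8226/S (mean -0.31 ± 0.12 SD, n = 4 lines). Members below control in all 4 lines numbered 29, or 59.2%, against 10.5% of all genes tested. The values farthest from 0 were CCNE1 at -0.82 ± 0.25, CDC6 at -0.76 ± 0.27, MCM5 at -0.67 ± 0.19, CDC45 at -0.66 ± 0.26 and MCM2 at -0.61 ± 0.19, with adjusted p from 0.107 to 0.225. For line differences averaged over the DAR times limma called 0 members, against 0.0324% of all genes tested, and 1 were under an unadjusted p of 0.05.

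CCNE2 moved most between the DAR times. Its signals were 3065, 496.8, 5386 and 2821 at 6 h of DAR and 1510, 350.6, 2546 and 707.1 at 24 h in U266, MM.1s, KMS11 and 8226/S, against 3801, 450.2, 3555 and 754.7 in control 1. At 6 h the 8226/S array stood far above its control and U266 below, and at 24 h every line was below its control. The change between 24 h and 6 h was -1.13 ± 0.27 (adjusted p = 0.00973), the only call among the members, against 3.66% of all genes tested called lower. It was lost without KMS11 (adjusted p = 0.0688), without 8226/S (0.0553) and with all 8 controls pooled (0.0586).

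ATO and DAR values are set side by side only, because doses match in 8226/S alone, at 2 µM with 1 array each. In 8226/S the members' medians were 0.10 at 6 h and 0.08 at 24 h of ATO, and -0.08 at 6 h and -0.39 at 24 h of DAR. The 8226/S array medians were 77.3 for control 1, 108.7 at 6 h and 95.7 at 24 h of DAR. Those of its ATO series were 123.8 for control 2, 121.9 at 6 h and 126.1 at 24 h. The members' values were not scaled for these shifts. In U266, at 2 µM ATO and 4 µM DAR, they were -0.29 and -0.56 under ATO and -0.18 and -0.28 under DAR. In MM.1s, at 2 µM ATO and 3 µM DAR, the ATO medians were -0.18 and -0.31 and the DAR medians -0.54 and -0.15. In KMS11, at the same doses as MM.1s, they were 0.03 and -0.21 under ATO and -0.08 and -0.42 under DAR.

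The untreated arrays differed among themselves too. Between lines, 37 of 49 members differed in the controls, against 52% of all genes tested. Within lines, members were lower in control 2 than in control 1, with medians of -0.18 in U266, -0.77 in MM.1s, -0.49 in KMS11 and -0.37 in 8226/S, where all genes tested had medians of 0.16 to 0.21. With the 8 controls pooled, 39 members fell at 48 h of ATO, against 32 with control 2 alone. The share of all genes tested called with pooled controls is not given here.

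Other probe sets of the same genes were read in a limma fit of all probe sets, mainly at 48 h of ATO. Of all 39 further tested probe sets, 33 were below 0 at 48 h of ATO and 18 fell. Of the 25 with a mean signal of 500 or more, 24 were below 0 and 17 fell. Among the dimmer ones, an RFC3 probe set was at 0.79 (adjusted p = 0.111) and a GINS4 probe set at 0.36 (0.614). The exception among the 25 brighter ones was an RFC5 probe set at 0.11, while another RFC5 probe set fell by 0.66 (adjusted p = 0.0175). In this fit the brightest RFC5 probe set, at -0.44, did not pass (adjusted p = 0.0543). The dimmer GINS3 probe set was at -0.45 (adjusted p = 0.0734), against -0.09 from the brighter one. The second MCM7 probe set was at -1.09 and that of E2F1 at -2.01, against -1.06 from the brighter E2F1 probe set. TK1 depended on the probe set, since its dimmer probe set fell by 0.93 (adjusted p = 0.00955), and further CHAF1A probe sets fell by 0.87 and 0.84. MCM10 probe sets disagreed in size, with values of -1.51, -1.39 and -0.46. Calls at 6 h depended on the probe set too. Under ATO the dimmer E2F1 probe set fell by 0.93 at 6 h (adjusted p = 0.0327). At 6 h of DAR a further probe set fell for MCM4 (-0.93, adjusted p = 0.0123), FEN1 (-0.67, 0.0275) and MCM6 (-0.87, 0.0436). That of MCM6 is a dim one, with a mean signal of 167. The brightest probe sets of these genes were not called at those times.

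Of 22 further replication genes 10 fell and 1 rose at 48 h of ATO, with a median of -0.44. For these and the next lists, 5.49% of all genes tested were called lower at that time and 6.4% higher. Those that fell include DSCC1 of an alternative clamp loader (-1.56 ± 0.21), EXO1, an exonuclease (-1.01 ± 0.23), the fork checkpoint adaptor CLSPN (-1.0 ± 0.27) and CDC7, the kinase that fires origins (-0.98 ± 0.18). POLD4, the smallest subunit of polymerase delta, rose by 0.83 ± 0.25, and by 1.15 ± 0.25 at 24 h. Of 22 genes of E2F and RB control 8 fell, among them CDC25A, the phosphatase that activates cyclin E kinase (-1.93 ± 0.34), TFDP1, the E2F dimer partner (-1.25 ± 0.19), CCND1 (-1.11 ± 0.26) and SKP2 (-1.0 ± 0.18). Of 9 nucleotide supply genes 6 fell, led by the nucleoside transporter SLC29A1 (-1.24 ± 0.22) and including SAMHD1, which degrades nucleotides (-0.61 ± 0.13).

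Of 7 histone chaperone and chromatin genes, which include the members CHAF1A and CHAF1B, 2 fell and 1 rose at 48 h of ATO. ASF1B fell by 1.08 ± 0.22 and DNMT1, the maintenance DNA methyltransferase, by 0.46 ± 0.11. ASF1A, the paralog of ASF1B and like it a chaperone of histones H3 and H4, rose by 1.15 ± 0.17 at 6 h, 0.99 ± 0.17 at 24 h and 1.05 ± 0.17 at 48 h. At 6 h of DAR, CDKN1A, the inhibitor of cyclin E kinase, rose by 2.32 ± 0.38 and E2F7, a repressor of E2F targets, by 1.08 ± 0.27, while ORC2 fell by 0.92 ± 0.16 and SKP2 by 0.84 ± 0.18.

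Genes of mitosis, listed for comparison, had line medians opposite in sign to those of the replication genes in all 4 lines at 24 h of DAR. At other times this was seen in KMS11 and 8226/S only. At 6 h of ATO the mitotic medians were -0.22 in KMS11 and -0.05 in 8226/S, beside 0.03 and 0.10 for the replication genes. At 24 h of ATO they were 0.39 and -0.01, beside -0.21 and 0.08. At 6 h of DAR only KMS11 differed in sign, at 0.01 beside -0.08, and at 48 h of ATO only KMS11 as well. At 48 h of ATO 10 of 25 mitotic genes fell, against 5.49% of all genes tested called lower. The mitotic line medians were -0.83 in U266, -1.77 in MM.1s, 0.23 in KMS11 and -0.06 in 8226/S. The replication genes' KMS11 median at that time was -0.41. At 6 h of DAR 25 of 25 mitotic genes were below 0 and 1 fell, with a median of -0.40 beside -0.23 for the replication genes. Of the 15448 genes tested 7366 were below 0 at that time, and 6.37% were called lower. At 24 h of DAR 0 of 25 mitotic genes were below 0, against 7275 of the 15448 genes tested. The mitotic median was 0.38 beside -0.31 for the replication genes. Of these mitotic genes limma called 0, and 9 were under an unadjusted p of 0.05, against 2270 of the 15448 genes tested. Against 6 h of DAR, 11 mitotic genes rose, against 4.08% of all genes tested called higher, among them CCNB1 (1.07 ± 0.23), CENPE (1.04 ± 0.25) and BUB1 (0.98 ± 0.17). The plasma cell markers were lower at 48 h of ATO as well: 7 of 8 fell, against 5.49% of all genes tested called lower. They were led by MZB1 at -2.07 and TNFRSF17 at -1.70, with a median of -0.98. Their part in the replication genes' decrease was not tested.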

How the data were processed

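RNA was purified on RNeasy columns and labelled with biotin, per the labels. The deposited values are array intensity values that the authors made with GCOS, per the submitters' processing notes. The GCOS version was not stated in the sources used. Values were taken as log2(value + 29) without further scaling. Symbols came from the platform annotation, updated through Entrez identifiers. Each gene was read from its brightest probe set, and genes above the array median on at least 4 of 28 arrays were tested, 15448 in all and every member among them.

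The fit used limma 3.58.1 in R 4.3.3 (lmFit and trended eBayes), with a baseline for each line and control number (8 baselines), 5 treatment terms and 15 residual degrees of freedom. Benjamini-Hochberg adjustment ran within each comparison over all genes tested, at a threshold of 0.05. The cell line pairs the arrays: deviations of same-line arrays from their group means correlated at 0.742 on average (lowest 0.607). Between lines they correlated at -0.0531 at most. Subtracting the group mean by itself pushes the values between lines below 0, so these are no separate evidence of pairing. That control 2 belongs with the ATO arrays was taken from the rule set for these genes, which pairs them so, and from the values (array medians and correlations), since the labels do not say so. The code was tested on simulated data. Members, all of which are named by role, and the gene lists were chosen with earlier results of these data known, and up to 4 called genes of each other list are named in a comparison. The number of arrays limits the precision.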

Additional observations from a re-analysis of the deposited data

Results flagged for a closer look

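With 245 groups of 4 line changes examined, 9 had a line far from the other lines by Dixon's criterion, and chance flags about 1 in 20 groups. ORC6 stood apart in U266, at -0.45 after 6 h of ATO beside 0.45 to 0.55 in the other lines, and at -0.79 after 24 h beside 0.12 to 0.23. GINS2 was at -0.04 in 8226/S after 24 h of ATO beside -0.89 to -0.79. RPA1 was at 0.73 in KMS11 after 24 h of ATO, where the other lines were within 0.07 of control. At 48 h of ATO POLA1 was at -0.14 in 8226/S beside -1.20 to -1.04, and PRIM1 was at -1.39 in MM.1s beside -0.58 to -0.51. MM.1s also stood apart under DAR, where POLD1 was at -0.81 after 6 h beside -0.15 to -0.08. CHAF1B was at -0.60 there beside -0.13 to -0.04, and CDC45 at 0.06 after 24 h beside -0.98 to -0.86.

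In limma's F test added after seeing the data, the change at 48 h of ATO differed between lines for 5 genes, with adjusted p of 0.0294 for MCM10, 0.0485 for GINS2, 0.0371 for GINS4, 0.024 for TYMS and 0.0443 for TK1. Each line has 1 array at 48 h, so the error came from other times and treatments, and the test averaged over the ATO times called 0 members. LIG1 was above control in all 4 lines at 6 h of ATO (0.07 to 0.82) and below it in all 4 at 48 h, where it fell by 0.65. RFC5 showed the same opposite directions, from 0.03 to 0.30 at 6 h, and fell by 0.44 at 48 h. Neither difference between times was tested. The 48 h calls of LIG1 and RFC5 were near the threshold (limma adjusted p = 0.0495 and 0.0486). Each was lost without U266, without MM.1s and without KMS11.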

How the results depend on the processing

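The 32 members that fell at 48 h of ATO numbered 25 to 39 under other offsets, scalings, filters, probe set summaries or the 8 controls pooled. Shares of all genes tested are not given for the settings in this section, apart from the fit with no replicate block. The counts therefore describe the members' calls only. They numbered 18 without U266, 18 without MM.1s and up to 36 with other lines left out, and 16 of the 32 were called with every line left out. The count was 1 from the 4 line changes alone (added after seeing the data) and 0 with no replicate block, where limma called 2 genes of all tested. With no replicate block the other counts of members were 0 as well, and 4 members instead of 37 differed between lines in the controls. The cause of these shifts was not tested.

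Members that fell at 6 h of ATO numbered 3 with pooled controls, 2 from line changes alone and 1 to 2 with a line left out. The count that rose was 0 from line changes alone and 0 to 1 with a line left out. At 24 h of ATO 9 fell with pooled controls and 1 to 10 with a line left out. At 6 h of DAR 6 fell under median centring, 1 under quantile normalization, 6 from line changes alone and 1 to 3 with a line left out, and 1 rose with pooled controls, 0 to 1 with a line left out. At 24 h of DAR 1 fell with pooled controls and 0 to 1 with a line left out. The ORC1 call between 24 h and 6 h of ATO was lost (0 members) with offset 16, median centring, no filter, mean of all probe sets, pooled controls and any line left out. Between 24 h and 6 h of DAR 2 members fell with offset 100, 0 with pooled controls and 0 to 2 with a line left out. No called value changed sign. Among the single-gene values followed through the settings, 20 that were not called changed sign with the 8 controls pooled, by more than their standard error. Such a change was seen for 1 value each without U266, without MM.1s, without KMS11 and with the mean of all probe sets. Directions of uncalled values therefore depend on which control is used. Of 40 line medians recomputed under median centring or quantile normalization 3 moved, by up to 0.37, each to a lower value under centring.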
